A study of Rattus norvegicus with 4 samples.

Results

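The respiratory chain and ATP synthase genes were followed in ROE2, an immortalized epithelial cell line from the tongue of a rat fetus of 18 days, over 9 days of culture at 37 °C. Genes were taken by symbol: those that begin with Ndufa, Ndufb, Ndufc, Ndufs, Ndufv, Uqcr, Cox4, Cox5, Cox6, Cox7, Cox8 or Atp5, and the genes Sdha, Sdhb, Sdhc and Sdhd. This gave 86 of the 14218 genes with a probe set of their own on the array, and 79 reached the floor used here, a log2 value of at least 6 on 1 array or more. By complex the 79 were 34 genes of complex I, 4 of complex II, 7 of complex III, 9 of complex IV and 15 of complex V, plus 6 complex I assembly factors and 4 associated genes that are no subunits.

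The line was derived from a transgenic Wistar rat whose SV40 large T-antigen is temperature-sensitive, so every array, day 0 included, is of cells with that gene. All arrays are of this 1 line. Cells were grown at 33 °C for 24 h in medium with 2% serum and 10 ng/ml EGF on collagen, then moved to 37 °C for 0, 3, 6 or 9 days. Day 0, which the labels call the control, is thus the 33 °C culture, and temperature, time in culture and array cannot be told apart. There was 1 Affymetrix 3' expression array per day and no replicate, so differences have no error and no test, and the number of arrays limits the precision. A gene counts as higher or lower when 2 arrays differ by 2-fold, a difference of 1 on the log2 scale, and the background given beside counts is the share of all 8802 genes above the floor that did the same. In a culture, fewer cells of a kind and less RNA per cell cannot be told apart.

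The labelled cell type was checked against its markers. All 9 measured genes of stratified epithelium were above the floor, and the basal keratin Krt14 read 14.11, 14.04, 14.15 and 14.15 on days 0, 3, 6 and 9. Krt13, a keratin of the differentiating layers, read 9.68, 12.23, 13.55 and 13.91. Krt5, the other basal keratin, read 13.44, 12.92, 13.06 and 13.16. The junction gene Jup was at 1.13 and the keratin gene Krt17 at 0.91 above day 0 on day 9. All 8 fibroblast markers were below the floor. Of 10 muscle markers 8 were below it, Myh1 was at 9.94, 10.28, 9.27 and 8.84, and Mb at 6.12, 5.50, 5.90 and 6.68. Of 6 measured immune markers 5 were below the floor and Cd68 was at 5.32, 6.54, 6.27 and 6.18. Summed on the linear scale, the muscle list was at 1189, 1431, 837 and 713 on days 0, 3, 6 and 9. The immune list was at 148, 136 and 134 on days 3, 6 and 9 and lower on day 0. The part of such cells in the results was not tested.

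The respiratory chain sits in the inner mitochondrial membrane. Complex I (NADH dehydrogenase) and complex II (succinate dehydrogenase) pass electrons to ubiquinone, complex III passes them to cytochrome c, and complex IV passes them to oxygen. Complexes I, III and IV pump protons, and complex V, the ATP synthase, uses the return flow to make ATP. Most subunits are encoded in the nucleus, a few in the mitochondrial genome, and only nuclear ones are described here.

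As a family these genes moved little. The members' median difference from day 0 was -0.15, -0.24 and -0.16 on the log2 scale on days 3, 6 and 9, next to -0.05, -0.18 and -0.14 for all genes tested. Relative to that median difference of all genes the family was therefore at -0.10, -0.06 and -0.02. On day 3, 1 member was 2-fold higher and 0 were 2-fold lower, where 4.31% and 2.15% of all genes were. On day 6 it was 1 higher and 1 lower (background 5.74% and 8.08%), and on day 9 it was 1 higher and 0 lower (background 5.57% and 6.25%). The gene higher on all 3 days was Ndufa4l2, which reached the floor only on those days. The gene lower on day 6 was the assembly factor Ndufaf4. None of the 69 subunits of complexes I to V with a probe set of their own differed 2-fold from day 0 on any of these arrays. Left out of these counts were 7 probe sets annotated to more than 1 gene. Of these, the ATP synthase probe set annotated to Atp5mc1l1 and Atp5mc1 was 2.00-fold below day 0 on day 6 and 2.94-fold on day 9.

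Small differences mostly ran below day 0. Such counts by sign depend on how the arrays were scaled. Relative to the median difference of all genes, the members' median was only at -0.10, -0.06 and -0.02 on days 3, 6 and 9. On day 3, 61 of 79 members were below day 0 by any amount, or 77.2%, where 55.8% of all genes were. The count was 68 on day 6 (86.1%, background 62.7%) and 59 on day 9 (74.7%, background 61.0%). On days 3, 6 and 9 alike 52 members, or 65.8%, lay below day 0, where 44.3% of all genes did. On all 3 days 8 of 79 members were above day 0, where 26.2% of all genes were, namely Ndufs4, Ndufaf1, Uqcrc1, Uqcr10, Ndufa4, Atp5pb, Atp5if1 and Ndufa4l2. Centring each array on the spike-in control transcripts, which were 0.14, 0.39 and 0.63 above day 0, would put the family at -0.29, -0.63 and -0.80 and the median of all genes at -0.19, -0.57 and -0.77. Whether these controls follow the amount of RNA per cell was not tested. Such centring shifts all genes of an array alike, so differences between genes stay as they are. With it, 7 of the 8 members above day 0 on all 3 days were below it on day 9, Ndufa4l2 being the exception.

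**Figure D1:**
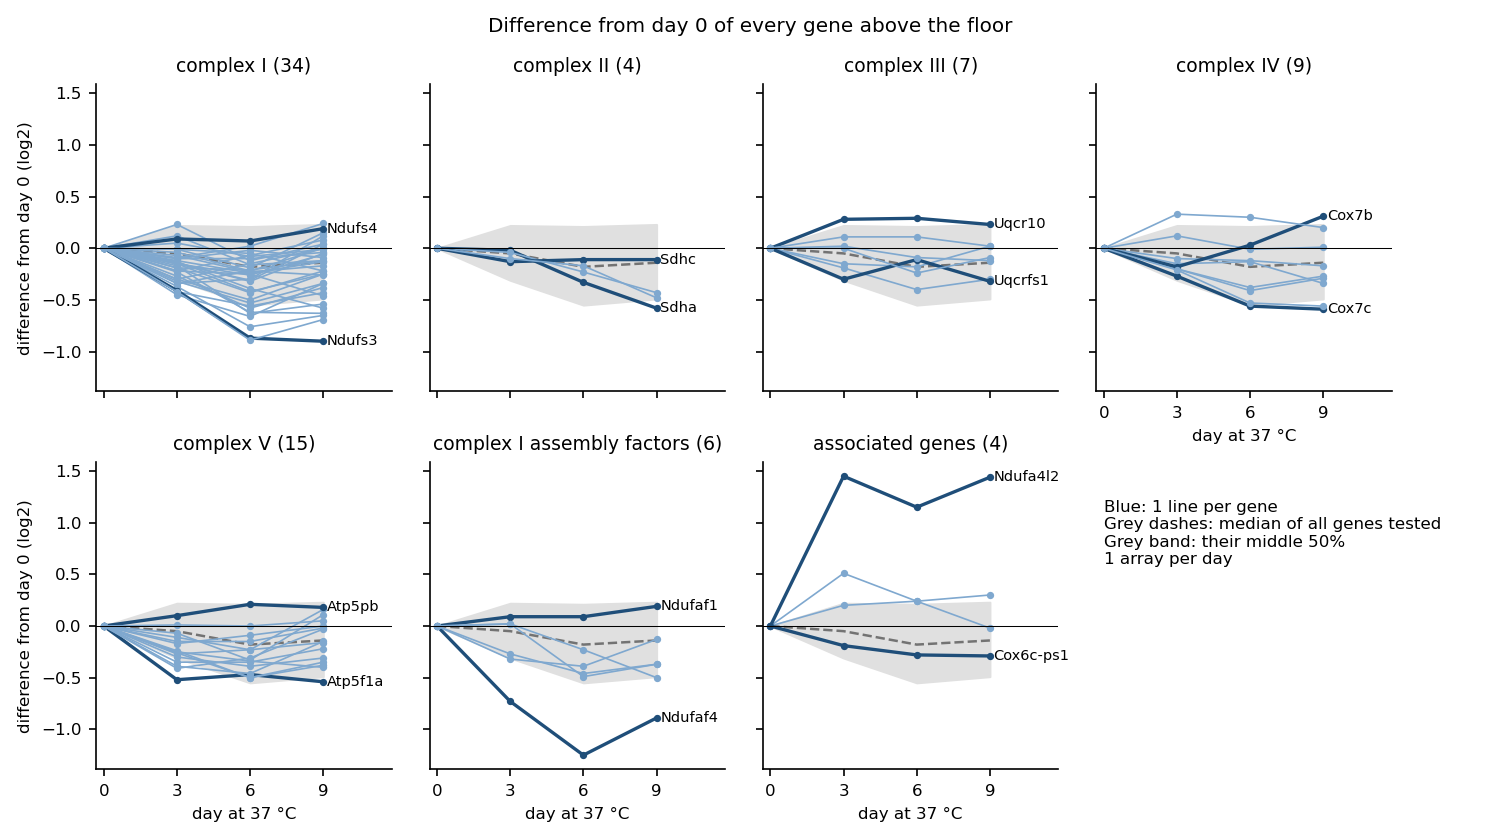
Difference from day 0 (log2, vertical axis) against day at 37 °C for each of the 79 genes above the floor, 1 panel per complex or group with its number of genes; grey dashes are the median of all 8802 genes tested and the grey band their middle 50%. Most lines stay inside the band, while Ndufa4l2 at 1.44 and Ndufs3 at -0.90 on day 9 lie outside it.

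The members also lay close together. On day 6 their middle 50% ran from -0.43 to -0.11, against -0.55 to 0.21 for all genes. Since most of them are bright, they were also set beside the 1619 other genes with a mean log2 value of 10 or more, whose middle 50% ran from -0.36 to 0.33. On day 6, 8 of 79 members (10.1%) were 1.5-fold or more from day 0, against 34.9% of all genes and 27.7% of those bright genes. On day 3 it was 2 members (2.53%, background 20.2%) and on day 9 it was 7 (8.86%, background 31.7%). By direction, 1, 7 and 6 members were 1.5-fold lower on days 3, 6 and 9, where 10.0%, 22.9% and 19.6% of all genes were. On each of these days 1 was higher, where 10.2%, 12.1% and 12.0% were. The 73 mitochondrial ribosomal protein genes, which make the machine that translates the mitochondrial subunits, had medians of -0.13, -0.40 and -0.31 on days 3, 6 and 9. Of them 4, 24 and 11 were 1.5-fold or more from day 0, which is 5.48%, 32.9% and 15.1%. No test of the difference between these families was made.

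**Figure D2:**
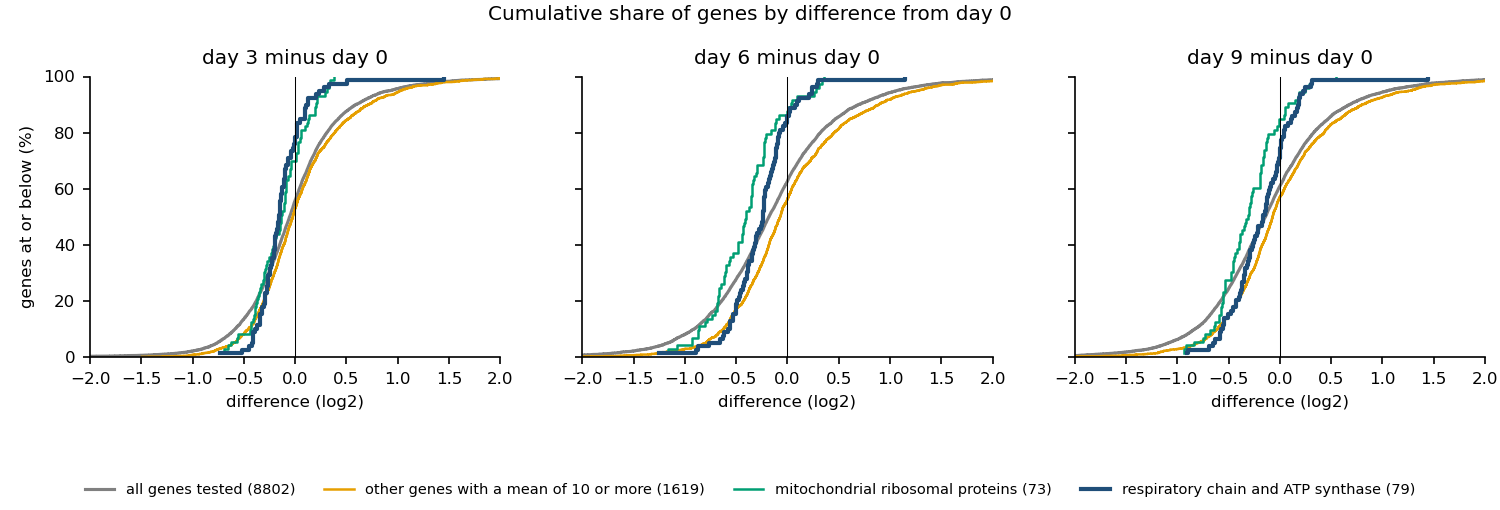
Cumulative share of genes (%, vertical axis) by difference from day 0 (log2, horizontal axis, shown from -2 to 2) on days 3, 6 and 9, for 79 respiratory chain and ATP synthase genes, 73 mitochondrial ribosomal protein genes, 1619 other bright genes and all 8802 genes tested. The curve of the respiratory chain genes is the steepest of the 4 on day 6, and on that day the ribosomal protein curve lies to its left at the median.

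The level was lowest on day 6 for 39 of the 79 members, or 49.4%, where 34.7% of all genes were lowest on that day. For 13 members the lowest array was day 3, for 19 day 9 and for 8 day 0. Of the 8802 genes tested, 1202 were lowest on day 3, 2240 on day 9 and 2305 on day 0. From day 6 to day 9 the members' median difference was 0.10, and 25 of 79 were below their day 6 value, where 42.1% of all genes were. From day 3 to day 6 it was -0.12, and 59 of 79 were below their day 3 value (background 65.9%). This dip was chosen for description after its values were seen and depends on the scaling: with the arrays' medians over the genes tested set equal, 25 members were lowest on day 6, and with the spike-in centring 13. The share of all genes lowest on day 6 was not taken under these 2 scalings, so whether the dip is particular to the members was not tested. No member was 1.5-fold apart between days 3 and 6 or between days 6 and 9, where 12.6% and 5.50% of all genes were.

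Promoters of the members were looked at as a description. RefSeq promoters of rat build GRCr8, from 250 bases before to 50 after a gene's start, were found for 78 of the 86 members. They were searched on both strands for 4 motifs of factors known for mitochondrial genes: GCATGCGC for NRF1, CCGGAAG for GABP and other ETS factors, AAGATGGC for YY1, and TCAAGGTCA for the estrogen-related receptors. The NRF1 motif can overlap itself on the other strand. The stretches below are the 150 bases before the start. They are shown for a gene of complex I, II, IV and V each that was below day 0 on day 9. Ndufa4l2, the 1 member that was 2-fold higher, is shown too. Each lower gene shown has a marked match and so does not stand for the lower genes as a whole. Of the 78 promoters 41 had no match to the 4 motifs, among them those of Ndufs3 and Sdha, also below day 0 on day 9. Capitals mark the matches that lie wholly inside the stretch, CTTCCGG being the ETS motif and TGACCTTGA the receptor motif on the other strand. Sdhb also has an NRF1 match further from the start, not shown. Cox8a also has a YY1 match on the other strand, which begins in the last bases shown and is not marked. The stretch of Ndufa4l2 has no marked match. Its 1 match, to the YY1 motif, begins at the last base before the start and so runs past the stretch.
Ndufs8, GRCr8 chr1:210573699-210573848, minus strand: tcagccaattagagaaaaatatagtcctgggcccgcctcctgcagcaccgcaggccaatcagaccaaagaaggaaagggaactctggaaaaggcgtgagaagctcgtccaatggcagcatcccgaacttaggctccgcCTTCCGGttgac
Sdhb, GRCr8 chr5:158547784-158547933, plus strand: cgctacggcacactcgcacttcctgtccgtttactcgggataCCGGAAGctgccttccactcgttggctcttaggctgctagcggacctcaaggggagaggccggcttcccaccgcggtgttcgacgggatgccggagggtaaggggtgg
Cox8a, GRCr8 chr1:213833624-213833773, minus strand: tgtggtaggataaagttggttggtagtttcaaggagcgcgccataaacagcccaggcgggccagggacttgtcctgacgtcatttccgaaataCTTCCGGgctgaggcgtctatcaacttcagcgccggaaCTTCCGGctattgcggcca
Atp5mc3, GRCr8 chr3:79220665-79220814, minus strand: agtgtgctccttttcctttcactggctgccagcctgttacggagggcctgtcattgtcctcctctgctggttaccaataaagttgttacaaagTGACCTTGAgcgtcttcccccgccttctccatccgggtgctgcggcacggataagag
Ndufa4l2, GRCr8 chr7:65242019-65242168, plus strand: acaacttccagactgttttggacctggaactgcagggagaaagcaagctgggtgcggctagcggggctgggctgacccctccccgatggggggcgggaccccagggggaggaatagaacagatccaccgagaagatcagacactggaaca

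The YY1 motif was in 17 of the 78 promoters (21.8%), against 6.34% of the 7424 promoters of genes tested and 3.67% of 21851 promoters of coding genes. In 15 of the 17 it began no more than 10 bases before the start or after it. Of the 17 matches 15 were on the plus strand of the promoter sequence and 2 on the other. Whether such letters near the start serve the factor was not tested. The ETS motif was in 22 (28.2%, against 20.6% and 10.7%), the NRF1 motif in 9 (11.5%, against 5.64% and 3.11%), and the receptor motif in 2, Atp5mc3 and Sdhd (2.56%, against 0.216% and 0.366%). A match describes letters in a window and not binding. Among members above the floor, those with and without the ETS motif had close medians on day 9, of -0.13 over 22 and -0.14 over 50, and for the YY1 motif they were -0.11 over 17 and -0.16 over 55. The 9 with the NRF1 motif were at -0.35 and the other 63 at -0.12 on day 9, and at -0.35 and -0.23 on day 6. Of these 9, 2 are complex I assembly factors. No test of these differences was made. Genes of the factors themselves differed little: Nrf1 read 6.83, 6.83, 6.73 and 6.76 on days 0, 3, 6 and 9, Gabpa 9.62, 9.52, 9.62 and 9.39, Yy1 10.44, 10.49, 10.38 and 10.57, and Esrra 8.25, 8.12, 8.16 and 8.37.

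Complex I is the largest of the complexes. Its 34 genes had a median of -0.16, -0.25 and -0.15 on days 3, 6 and 9, and 30, 32 and 27 were below day 0, against 55.8%, 62.7% and 61.0% of all genes. Relative to the median difference of all genes it was at -0.11, -0.07 and -0.01. Of the 34, 21 were lowest on day 6 (background 34.7%) and 25 were below day 0 on all 3 later days (background 44.3%). The core subunits, those shared with the bacterial enzyme, parted into 2 groups. The parting was picked out after its values were seen.

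Ndufs3, Ndufs7 and Ndufs8 belong to the part of the matrix arm that leads electrons to ubiquinone, and Ndufs7 and Ndufs8 hold iron-sulfur clusters there. Ndufs3 (chr3:97332477-97339654 in GRCr8) read 10.34, 9.93, 9.47 and 9.44 on days 0, 3, 6 and 9. It was thus highest on day 0 and 1.87-fold lower on day 9, a difference of -0.90, and 8.07% of all genes tested had a lower one. Ndufs8 (chr1:210569823-210573707) read 9.64, 9.22, 8.74 and 8.95, with its lowest value on day 6, 1.86-fold below day 0. Ndufs7 read 10.84, 10.61, 10.22 and 10.21, 1.55-fold below day 0 on day 9. The median of the 3 was -0.41, -0.87 and -0.69. The values nearest to the 2-fold size without reaching it were those of Ndufs3 on day 9, at -0.90, and of Ndufs8 on day 6 and Ndufaf4 on day 9, both at -0.89. The nearest beyond it were those of Ndufa4l2 and Ndufaf4 on day 6, at 1.15 and -1.25.

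Ndufv1, Ndufv2 and Ndufs1 form the tip of the same arm, where NADH is oxidised, and differed less. Ndufv1, which binds NADH and the flavin, read 10.44, 10.34, 10.41 and 10.34. Ndufv2 read 11.35, 11.35, 11.31 and 11.14, and Ndufs1, which holds a chain of iron-sulfur clusters, 10.23, 10.46, 10.10 and 10.26. The largest size among these 3 on any later day was 0.23, for Ndufs1 on day 3, and their median on day 9 was -0.09.

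The accessory subunits surround the core and serve its assembly and stability. Of the Ndufb genes, which lie in the membrane arm, all 11 were below day 0 on days 3 and 6 and 9 on day 9. Of all genes 55.8%, 62.7% and 61.0% were below day 0 on days 3, 6 and 9. Relative to the median difference of all genes, the Ndufb median was at -0.14, -0.06 and 0.01. Ndufb3 was at -0.37, -0.76 and -0.65 on days 3, 6 and 9, 1.57-fold below day 0 on day 9, and Ndufb11, on the X chromosome, read 11.41, 11.28, 11.03 and 10.83. Ndufab1, the acyl carrier protein that is also a subunit, read 11.64, 11.47, 11.01 and 11.10. Ndufa2 and Ndufa11 were at -0.66 and -0.58 on day 6 and at -0.34 and -0.38 on day 9.
Above day 0 on day 9 were Ndufa1 by 0.24, Ndufs4, a subunit whose loss causes Leigh-like disease, by 0.19, and Ndufb2 by 0.15. Of these Ndufs4 was the 1 complex I gene above day 0 on all 3 later days, with 10.46, 10.56, 10.53 and 10.65. For Ndufv3, a small subunit at the tip of the arm, probe sets parted on day 9, the one used being at 0.12 and a dimmer one at -0.44. For Ndufa9 the one used was at 0.04 and another, below the floor, at 0.76.

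Assembly factors put complex I together and are not part of the finished enzyme. Ndufaf4 (chr5:43401795-43406967) read 10.42, 9.69, 9.17 and 9.53. It was highest on day 0 and lowest on day 6, 2.38-fold below day 0, and 3.98% of genes tested were lower there. On day 9 it was 1.85-fold below. Ndufaf3, its partner, read 9.22, 9.23, 8.98 and 8.71, and was apart from day 0 only later. Ndufaf5 was at -0.49 on day 6, Ndufaf7 at -0.46 and Ndufaf8 at -0.39, and Ndufaf1 was above day 0 by 0.19 on day 9.

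**Figure D3:**
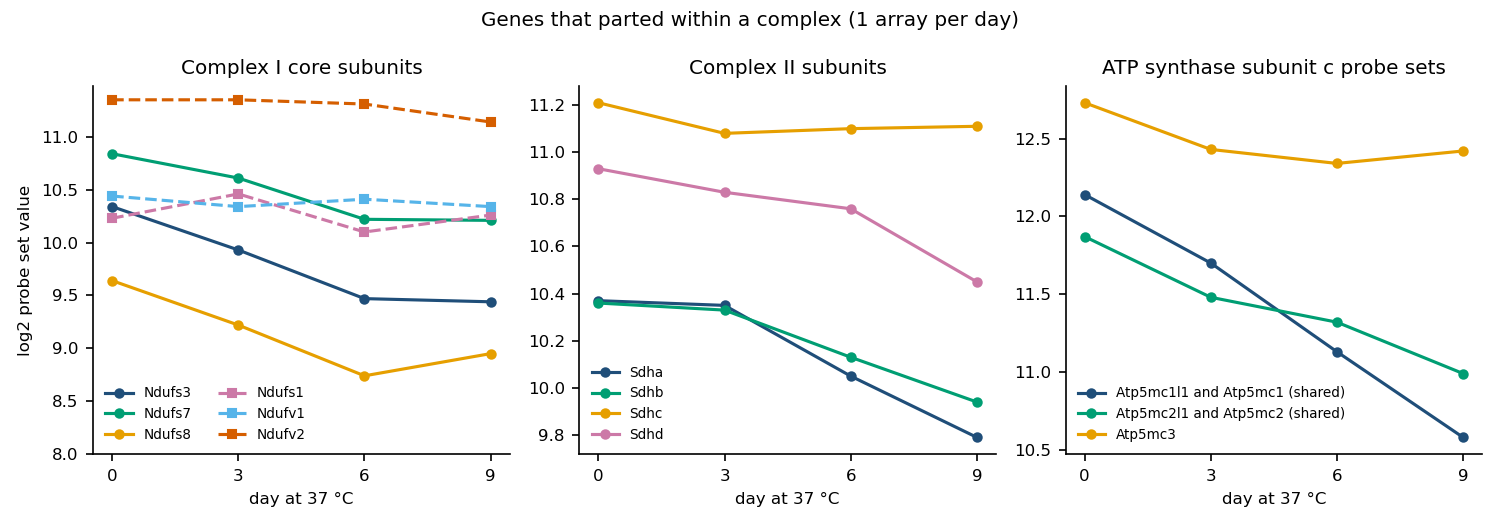
Log2 probe set value (vertical axis, with a range of its own in each panel) against day at 37 °C for 6 core subunits of complex I, the 4 subunits of complex II and 3 probe sets for subunit c of the ATP synthase, 1 array per day. Ndufs3, Ndufs7 and Ndufs8 run down while Ndufs1 and Ndufv1 end within 0.1 of their start, and Sdha reaches 9.79 on day 9.

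Complex II joins the citric acid cycle to the chain and has all of its subunits encoded in the nucleus. By median it was the complex furthest from day 0 on day 9, with medians of -0.07, -0.20 and -0.45, or -0.31 relative to the median difference of all genes on day 9. Sdha, the flavoprotein that oxidises succinate, read 10.37, 10.35, 10.05 and 9.79, 1.49-fold below day 0 on day 9. Sdhb, the iron-sulfur subunit, read 10.36, 10.33, 10.13 and 9.94. Of the membrane anchors, Sdhd read 10.93, 10.83, 10.76 and 10.45, and a second probe set of it, at 10.29, 10.26, 10.16 and 9.75, ran the same way. Sdhc read 11.21, 11.08, 11.10 and 11.11 and stayed within 0.13 of day 0. Sdha, Sdhb and Sdhd were thus lowest on day 9, with no turn after day 6.

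Complex III, the cytochrome bc1 complex, was the closest to day 0 on days 3, 6 and 9 by median, with of 0.00, -0.11 and -0.09. With the arrays' medians over the genes tested set equal, its medians on days 6 and 9 were 0.05 and 0.02. Uqcr10, a small subunit, was above day 0 throughout, at 12.43, 12.71, 12.72 and 12.66, and the core gene Uqcrc1 read 11.17, 11.28, 11.28 and 11.20. The other core gene, Uqcrc2, read 11.01, 10.86, 10.83 and 11.02. A dimmer probe set of it read 8.12, 7.89, 8.71 and 7.90, so on day 6 the 2 parted, at -0.18 and 0.60. Uqcrfs1, the Rieske iron-sulfur protein, read 11.34, 11.04, 11.22 and 11.01. Uqcr11 was at -0.40 on day 6, and Uqcrh and Uqcrq ended at -0.12 and -0.09. Cyc1, the cytochrome c1 gene of the same complex, is outside the symbol rule and was at -0.21, -0.27 and -0.37 on days 3, 6 and 9.

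Complex IV, cytochrome c oxidase, had medians of -0.18, -0.13 and -0.27 over its 9 genes above the floor, or 0.03 on day 6 with the arrays' medians set equal. The lowest on day 9 were 2 small membrane subunits. Cox7c read 11.43, 11.16, 10.87 and 10.85, a difference of -0.59 on day 9, and Cox8a 12.26, 12.05, 11.73 and 11.70. Cox6a1 ended at -0.34, Cox5b at -0.29, Cox6c at -0.27 and the large nuclear subunit gene Cox4i1 at -0.17. Cox7b, on the X chromosome, read 12.53, 12.35, 12.55 and 12.84, the largest step upward of a complex IV gene on day 9. Ndufa4, named for complex I but now counted with complex IV, was above day 0 on all 3 days by 0.33, 0.30 and 0.20, and Cox6b1 stayed within 0.12.

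Several complex IV subunits exist in a common form and in a form restricted to certain tissues. The probe sets of Cox4i2, of the muscle forms Cox6a2 and Cox8b, and of the testis forms Cox6b2 and Cox7b2 read between 2.72 and 4.25 on all 4 arrays. The bacterial control probe sets, which show the background, reached 4.19, 4.36, 4.51 and 4.56 on days 0, 3, 6 and 9, and Cox6a2 on day 0, at 4.25, was just above them. Cox7a1, the heart and muscle form, read 4.74, 5.12, 4.72 and 4.66, below the floor. The common forms Cox4i1, Cox6a1, Cox6b1, Cox7b and Cox8a read between 11.70 and 12.86. Cox5a was the 7th gene below the floor, at 5.66, 5.59, 5.68 and 5.94, but a probe set annotated to both LOC100361008 and Cox5a read 12.58, 12.46, 12.31 and 12.29, and which of these stands for the gene was not tested.

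**Figure D4:**
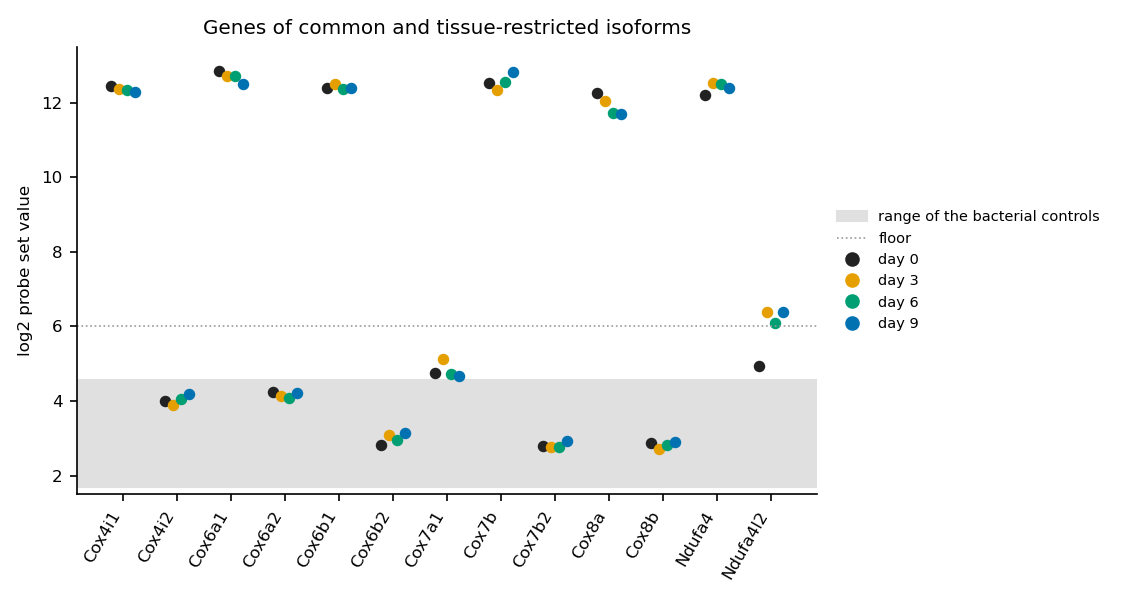
Log2 probe set value (vertical axis) of 13 genes of common and tissue-restricted forms on days 0, 3, 6 and 9, with the range of 27 bacterial control probe sets as a grey band and the floor of 6 as a dotted line. The band spans the controls of all 4 arrays. Cox4i2, Cox6a2, Cox6b2, Cox7b2 and Cox8b lie in it, and Ndufa4l2 goes from 4.94 to above the floor.

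Ndufa4l2, a relative of Ndufa4 known as a hypoxia-inducible gene, was the member furthest above day 0. It lies at chr7:65242169-65244296 in GRCr8 and read 4.94, 6.38, 6.09 and 6.38 on days 0, 3, 6 and 9. It was lowest on day 0, just above the background, and 2.73-fold, 2.22-fold and 2.71-fold higher on days 3, 6 and 9. It reached the floor of 6 only on days 3, 6 and 9, where it was higher. Its rank among the genes tested is therefore not given. With the spike-in centring Ndufa4l2 was 2-fold higher on day 3 only, at 1.31, and at 0.76 and 0.81 on days 6 and 9. Of the other associated genes, Cox7a2l, which helps complexes III and IV to join, read 11.13, 11.64, 11.37 and 11.11 and was highest on day 3. Atp5if1, the inhibitor that stops the ATP synthase from running backward, read 11.00, 11.21, 11.24 and 11.30, and Cox6c-ps1, a transcribed pseudogene, ended at -0.29.

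Complex V had a median of -0.25, -0.33 and -0.15, and 13, 14 and 11 of its 15 genes were below day 0, against 55.8%, 62.7% and 61.0% of all genes. On day 9 its median was close to the -0.14 of all genes. The 5 genes of its catalytic F1 head had medians of -0.25, -0.34 and -0.38. Atp5f1a, the alpha subunit, read 12.08, 11.57, 11.61 and 11.54, with its whole difference present on day 3, when it was 1.43-fold below day 0. Atp5f1b, the beta subunit, read 12.68, 12.43, 12.33 and 12.28, and Atp5f1c, the gamma subunit of the central stalk, 12.02, 11.76, 11.52 and 11.64. Atp5f1d ended at -0.00 and Atp5f1e at 0.11.

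The other 10 genes of complex V form the membrane part and the peripheral stalk and had medians of -0.26, -0.27 and -0.09. Atp5pd, of the peripheral stalk, read 12.81, 12.82, 12.80 and 12.85 and changed least of all members, over a range of 0.05. Atp5pb, of the same stalk, was above day 0 on each later day, at 12.39, 12.49, 12.60 and 12.57. Atp5po, which joins the stalk to F1, read 11.67, 11.43, 11.17 and 11.32. Atp5me was at -0.27 and -0.23 on days 3 and 6 and at 0.16 on day 9, and another probe set of it, below the floor, was at -0.33 on day 9.

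Subunit c forms the rotating ring of the ATP synthase and is encoded by several genes for 1 mature protein. Atp5mc3 read 12.73, 12.43, 12.34 and 12.42. The other c genes have no probe set of their own, and their values belong to no single gene. A probe set annotated to both Atp5mc1l1 and Atp5mc1 read 12.14, 11.70, 11.13 and 10.58, lower on every array than on the one before, and was 2.94-fold below day 0 on day 9. A probe set annotated to both Atp5mc2l1 and Atp5mc2 read 11.87, 11.48, 11.32 and 10.99, 1.84-fold below. Of 7 such shared probe sets, left out of all counts here, that of Ndufa10 and Ndufa10l1 was at -0.69 on day 9. Those of Cox7a2, Uqcrb, Ndufs5 and Cox5a with their copies were at 0.09, -0.11, 0.03 and -0.29. For 42 of the 86 members RefSeq names a pseudogene or copy, which a probe set may also detect, and their part in these values was not tested.

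**Figure D5:**
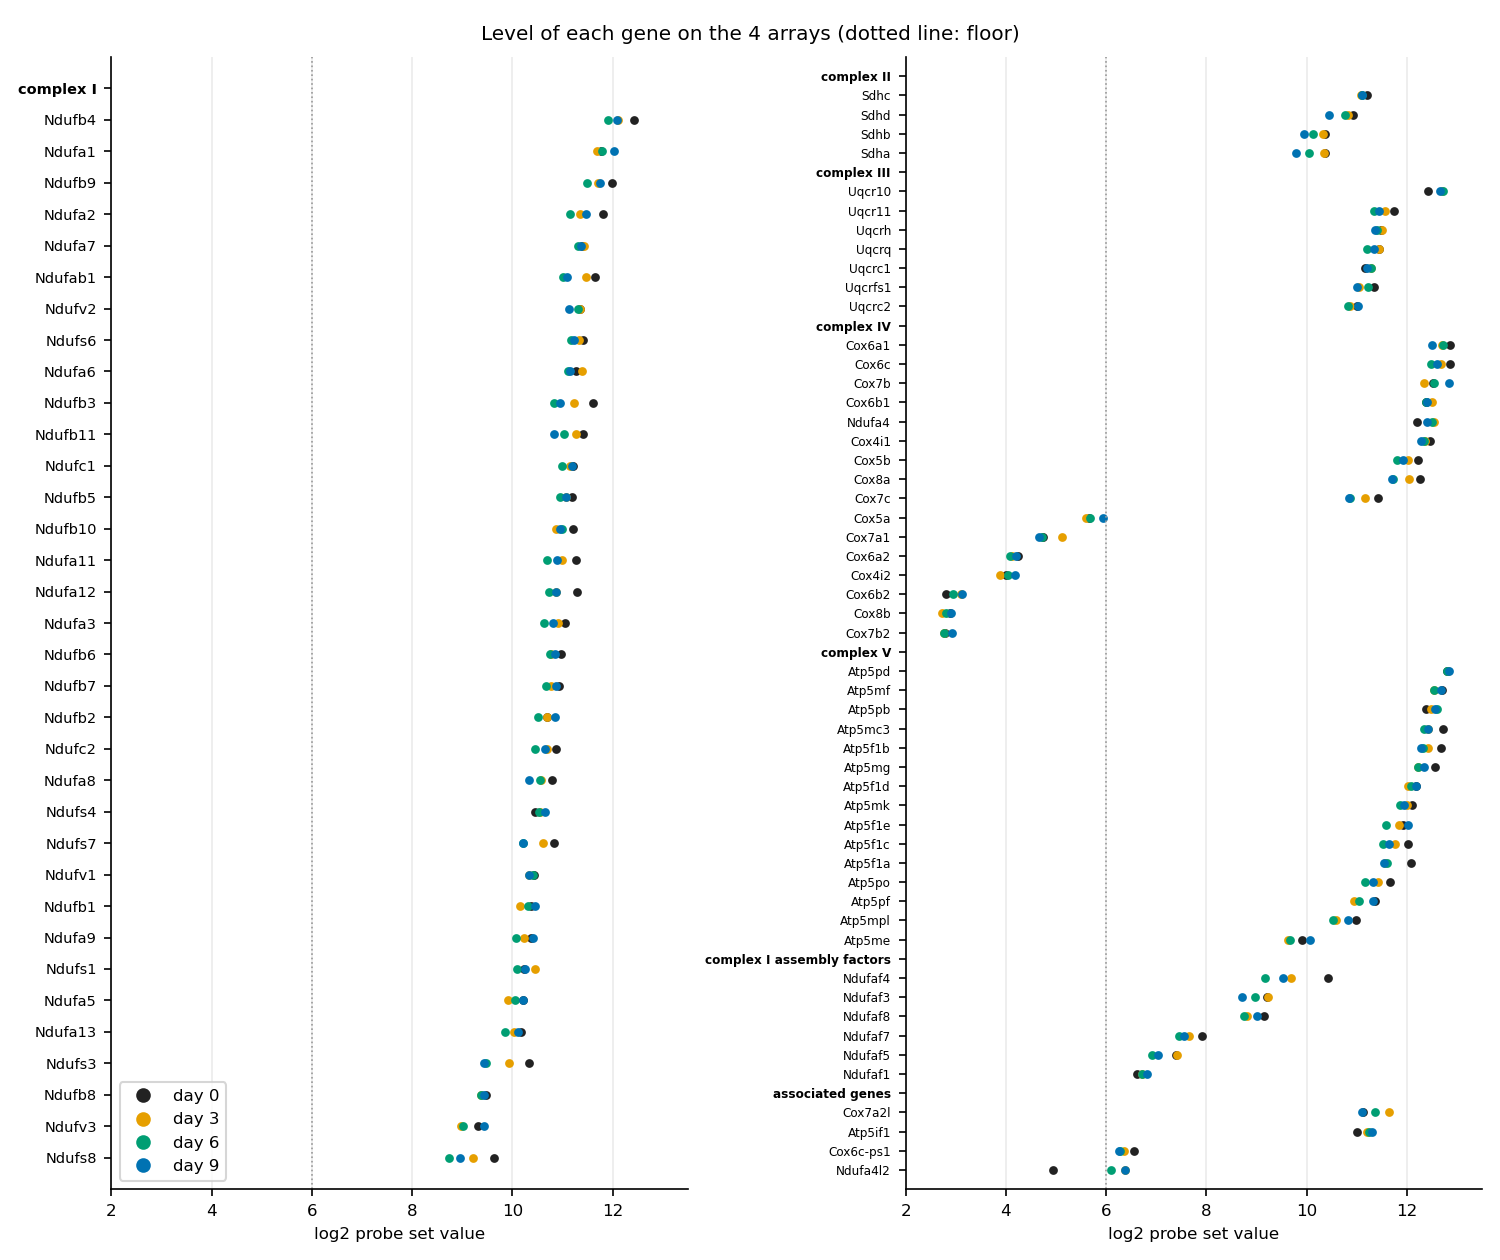
Log2 probe set value (horizontal axis) of each of the 86 genes on days 0, 3, 6 and 9, grouped by complex and ordered by mean, with the floor of 6 as a dotted line. Probe sets differ in how well they bind, so the order of genes is not an order of abundance; Atp5pd shows the 4 days at 1 place and Ndufs3, Ndufaf4 and Ndufa4l2 show day 0 apart.

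The neighbours of the chain were read from other lists. Of 30 assembly factor genes outside the symbol rule, 12 were 1.5-fold or more lower on day 9 and 0 higher, with a median of -0.43, where 19.6% and 12.0% of all genes tested were. Bcs1l, which inserts the Rieske protein into complex III, read 8.22, 7.94, 7.10 and 6.93, Coa7, a complex IV factor, 6.55, 5.72, 5.48 and 5.56, and Cox18, which inserts a complex IV subunit, ended at -0.92. Of these 3, Bcs1l was past 2-fold on day 9, at -1.29.

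Of 12 citric acid cycle genes, 3 were 1.5-fold lower on day 9 and 1 higher, with a median of -0.20, near the 19.6% and 12.0% of all genes. Suclg2, of the step that makes succinate, ended at -0.73 and Suclg1 at -0.62, while Ogdh, of the step before, read 9.34, 9.50, 9.63 and 10.04. Of 9 genes of pyruvate entry above the floor 2 were 1.5-fold lower and 0 higher on day 9, against the same shares. The lower ones were the phosphatase gene Pdp1 at -0.90 and Pdha1 at -0.83, and Pdhb, at -0.53, did not reach that size. On day 3, 2 of the 9 were higher and 0 lower (background 10.2% and 10.0%). On day 6 it was 1 higher and 2 lower (background 12.1% and 22.9%). Pdk4, of the same list but below the floor, read 2.91, 4.41, 5.69 and 4.80 on days 0, 3, 6 and 9. Among 15 regulators of mitochondrial biogenesis 4 were 1.5-fold lower and 0 higher, where 19.6% and 12.0% of all genes were, with Ssbp1, the single-strand DNA binding protein, at -0.98, Polg2 at -0.70 and Pprc1 at -0.65. Ppargc1a was below the floor, at 4.01, 4.61, 3.97 and 3.64.

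All 16 carrier, pore and import genes were below day 0 on day 9, with a median of -0.46, where 61.0% of all genes were. Of the 16, 5 were 1.5-fold lower (background 19.6%). Slc25a4, an ADP/ATP carrier that serves the ATP synthase, read 10.65, 9.14, 8.59 and 8.69, a difference of -1.96 on day 9. Slc25a5, another ADP/ATP carrier of the list, read 12.45, 11.86, 12.29 and 12.04, a difference of -0.42. The pore gene Vdac3 ended at -0.89 and the phosphate carrier gene Slc25a3 at -0.87. Of 6 genes of other electron routes 1 was 1.5-fold higher and 1 lower on day 9 (background 12.0% and 19.6%). Etfb, of the flavoprotein that brings in electrons from fatty acids, read 10.17, 10.81, 11.08 and 10.85, Dhodh, of pyrimidine synthesis, was at -1.01, -1.16 and -0.63 on days 3, 6 and 9, and Etfdh ended at 0.33.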

How the data were processed

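The authors deposited log2 probe set values of 4 arrays made with RMA, per the submitters' processing notes. RMA subtracts background, makes the distributions of the arrays nearly equal and reduces each probe set to 1 value, so a change of all RNA in a cell would not show. Its software and settings: not given in the sources used here. Base 2 was read from the values, which run from 1.55 to 14.2. The kit of the labels' protocols primes near the 3' end, and 500 ng of total RNA was labelled.

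Of 31099 probe sets, 20832 carry 1 gene symbol in the platform annotation, 436 several and 9831 none; Entrez identifiers of 20764 were in RefSeq and 0 symbols changed. Each gene was represented by its brightest probe set by mean value. Genes needed 6 or more on at least 1 array (8802, 61.9%). Differences between arrays were taken on the log2 scale and counted at 2-fold; alternatives were 1.5-fold and 3-fold, other floors, centring on the median or the spike-ins, a further quantile normalization, other choices of probe set, subunits alone and the mean over members. No test was run with 1 array per day. The calling and median steps were checked on simulated data.

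Named genes were members past 2-fold, the 3 furthest in each direction per complex on day 9, core subunits, complexes II and III, tissue forms, the 3 furthest of each other list, and probe sets that part. Others, such as the accessory subunits, factor genes and shared probe sets, were chosen after their values were seen. Members were not ranked by level, since probe sets bind differently. A ranking of genes by correlation to the family was not run, since 4 arrays are too few. Members and lists were chosen with earlier results of these data known. Python 3.11.15, numpy 2.4.6, pandas 2.3.3 and matplotlib 3.10.9 were used.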

Additional observations from a re-analysis of the deposited data

How the results depend on the processing

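With 1 array per day, no spread between replicates was available, and a median counted as moved when it shifted by 0.1 or more. No paired analysis was possible because each day has 1 array. The members' median stayed below 0 under every alternative run. With the arrays' medians over the genes tested set equal, which left the median difference of all genes at -0.02 on day 6 and -0.03 on day 9, it was -0.08 on day 6 and -0.05 on day 9, and complexes III and IV were then at 0.05 and 0.03 on day 6 and complex III at 0.02 on day 9. Centred on the spike-ins it was -0.29, -0.63 and -0.80 on days 3, 6 and 9, the associated genes were at -0.15 and -0.50 on days 6 and 9, 7 members were 2-fold lower on day 6 and 21 on day 9 (background 21.6% and 33.1%), and 0 were higher on days 6 and 9. With a floor of 8, with subunits alone or at 3-fold, 0 members were higher on days 3, 6 and 9, since Ndufa4l2 is dim, no subunit and under 3-fold; 0 were lower on day 6 with subunits alone or at 3-fold. At 1.5-fold 1, 7 and 6 members were lower on days 3, 6 and 9. The mean over probe sets, unmarked probe sets, no floor and a further quantile normalization moved no median over all members by 0.1 and no count of members by over 1.5 times. Without a floor complex IV was at -0.01 on day 9, with the further normalization at -0.26 on day 6, and with unmarked probe sets the associated genes were at -0.02 on day 9. Values near background, such as Ndufa4l2 on day 0, are the least certain.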
